A study of Mus musculus with 7 samples.

Results

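Microglia are the resident macrophages of the brain, and 38 genes that mark them or macrophages in general were examined in ribosome-bound RNA of mouse medial prefrontal cortex (mPFC). The genes were listed by name as microglia and macrophage genes, with earlier results of these data known. All 38 matched a gene symbol exactly among the 22180 genes with a probe set of 1 symbol. Where several probe sets carried a symbol, the brightest on average was used.

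The RNA came from TRAP mice (translating ribosome affinity purification), in which a ribosomal protein carries GFP, crossed to an ArcCre line. Arc is an activity-regulated neuronal gene, so its promoter turns the tag on in cells that are active while tamoxifen is present. Mice of the cocaine group received tamoxifen with cocaine at 15 mg/kg on 2 days (4 arrays, numbered 4, 5, 6 and 7). Mice of the shock group received it with a protocol of 20 shocks, each 2 s long at 0.5 mA, for 2 days (3 arrays, numbered 4, 5 and 6). An anti-GFP antibody pulled down the tagged ribosomes in both groups. The labels used here give no age, sex or strain, and nothing in them says whether each array holds a different animal. The p-values therefore reflect array-to-array spread alone, part of which may be technical. RNA from before the pulldown was not analysed here, so neither enrichment nor depletion of a gene by the pulldown can be given. The tag depends on the promoter of a neuronal gene, and whether microglia carried it was not measured here. Fewer microglia, less RNA per cell and a smaller share of microglial RNA in the pulldown therefore cannot be told apart.

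Microglia depend on signals from their surroundings. Among them are Csf1, Il34, Tgfb1 and Cx3cl1, whose receptors on microglia are encoded by Csf1r, Tgfbr1 with its partner Tgfbr2, and Cx3cr1. These signals keep the cells alive and in a surveying state marked by P2ry12, Tmem119 and Siglech. Activating receptors of the Trem2 and Fc families work through the adaptors Tyrobp and Fcer1g, complement C1q tags synapses and debris for uptake, and the transcription factors Spi1 (PU.1) and Irf8 hold the myeloid gene programme in place.

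Values are the deposited log2 signals, compared between groups as cocaine minus shock with limma (two-sided, Benjamini-Hochberg over all 22180 genes). To judge which genes were clearly measured, a background level was set at 5.46, the 95th percentile of mean values over 1390 genes for receptors of the nose (olfactory and vomeronasal). Of the 38 members, 24 (63.2%) had a mean at or above this level, close to the 61.9% of all genes. Few lay far above it. The members more than 1 log2 unit above it were Cd68, Cx3cr1, Cd33 and Laptm5, which is 4 of 38 (10.5%) against 44.6% of all genes, 10 of 10 neuron markers, 9 of 10 astrocyte markers and 9 of 12 vascular markers. Laptm5 lay just inside this limit with a mean of 6.46, and Fcgr3 just outside with 6.35. The number depends on the level chosen. It was 13 of 38 with the 90th percentile and 2 of 38 (Cd68 and Cx3cr1) with the 99th, against 53.0% and 31.7% of all genes. Markers of macrophages at the brain's borders (such as Mrc1 and Cd163) had 0 of 10 genes more than 1 unit above the 95th percentile, and markers of blood leukocytes 0 of 15. On arrays a probe set near background can move little when its RNA changes, so the folds of most members may be understated.

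**Figure D1:**
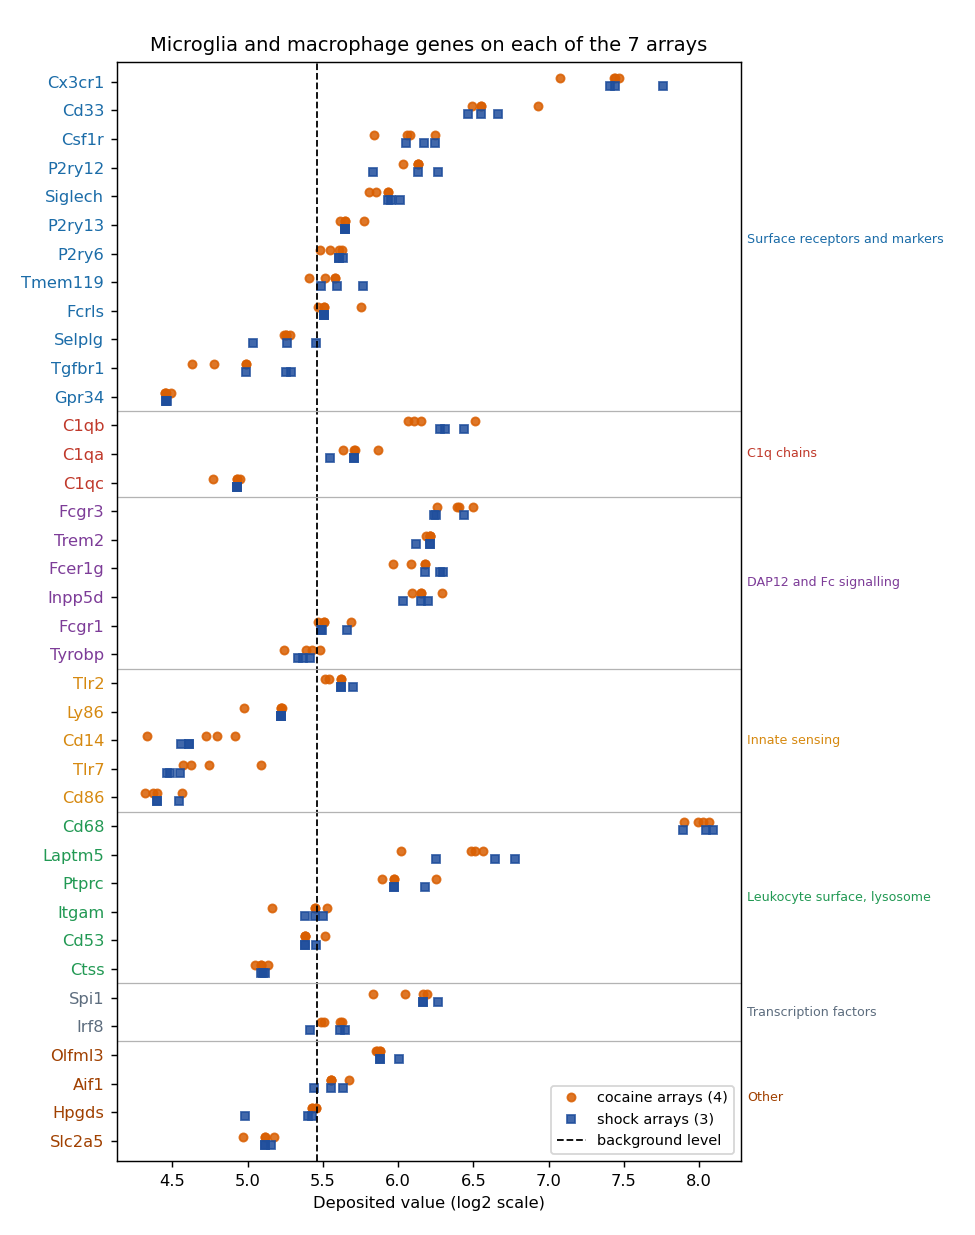
Deposited log2 value (x axis) of each of the 38 members (rows, grouped by role) on the 4 cocaine arrays (orange circles) and 3 shock arrays (blue squares), with the background level of 5.46 as a dashed line. Cd68 and Cx3cr1 lie farthest to the right of the line, and the circles and squares of nearly every gene overlap.

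No member differed between the groups after correction. At an adjusted p under 0.05, 0 of 38 members were called (limma, smallest adjusted p = 0.938), as were 0% of all genes. At an unadjusted p under 0.05 there was 1 member, Tgfbr1, against 3.1% of all genes. Without moderation of the variances by limma, 0 members had an unadjusted p under 0.05. The number was 0 without cocaine array 5 or shock array 5, 2 without cocaine array 4, and 3 without cocaine array 6 or cocaine array 7. The groups failed to overlap for 1 member, Tlr7, where 2.37% of all genes showed no overlap. That count was 3 without cocaine array 6, shock array 4 or shock array 6, and 4 without shock array 5.

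The members had a median difference of -0.012, beside 0.0016 over all genes, and 16 had a higher and 22 a lower mean in the cocaine group. Over all genes, 11297 had a higher and 10883 a lower mean. For the 12968 genes within the members' range of mean levels the median was -0.0076, with 5897 higher and 7071 lower. The sign of the members' median depends on the scaling: it was -0.00033 after quantile normalization and 0.0079 after median centring, where 20 members had a higher mean. The intervals of the measured values were narrow. They do not bound the change in RNA, because 14 members lay under background, where a probe set can move little. Tied values on 2 or more arrays, found in 31 members, also entered them. For 37 of 38 members the 95% interval of the difference (limma, not adjusted for the number of genes) lay within a 1.5-fold change in either direction, as it did for 94.2% of all genes. Tgfbr1 was the exception, with an interval of -0.61 to -0.056. The number was between 34 and 37 when any 1 array was left out. The median size of a difference, whatever its sign, was 0.050 over the members and 0.051 over all genes, and the median within-group SD was 0.097 and 0.093.

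**Figure D2:**
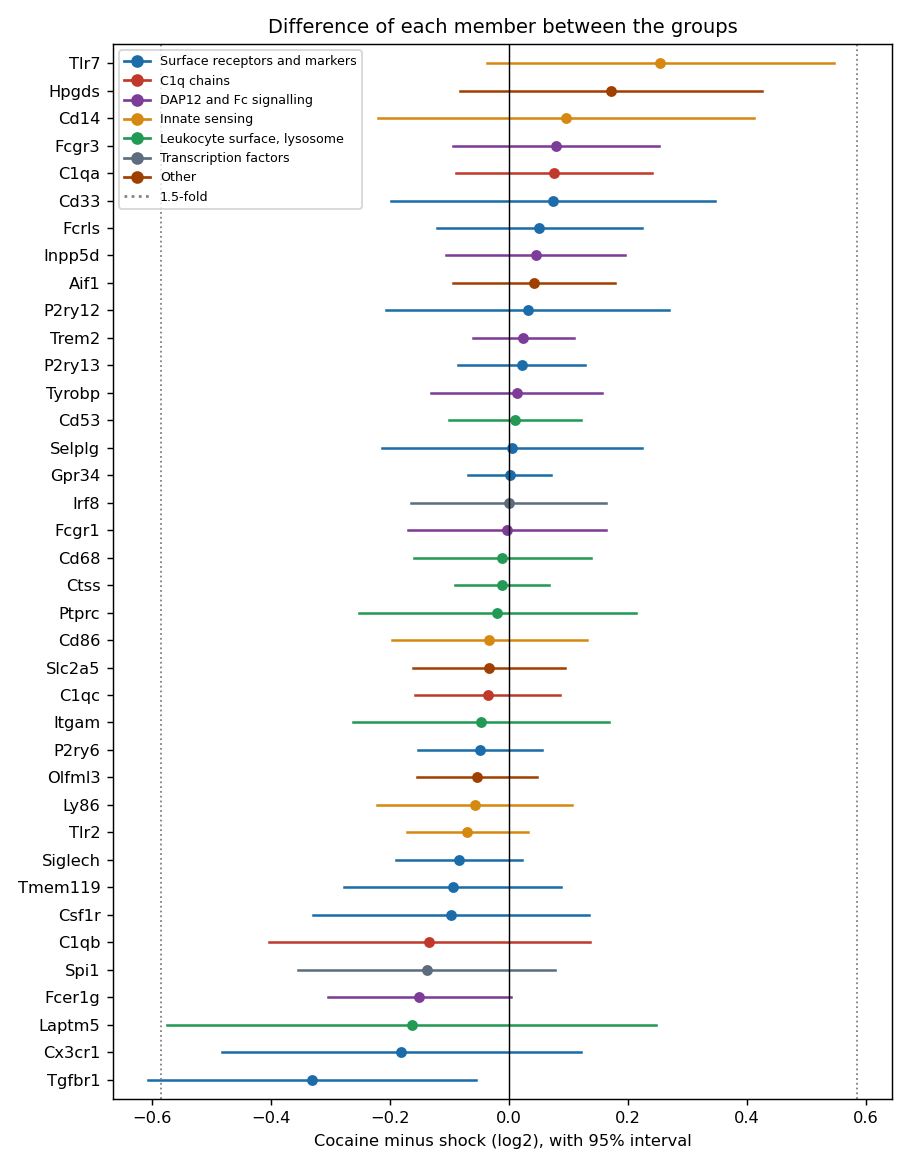
Difference between the group means (cocaine minus shock, log2, x axis) of each of the 38 members, with its 95% interval from limma as a bar; colours mark roles and dotted lines mark 1.5-fold. All intervals but that of Tgfbr1 cross 0, and its bar reaches past the lower 1.5-fold line.

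Among the surface receptors, Cx3cr1, the receptor for the neuronal chemokine fractalkine, was 7.47, 7.44, 7.08 and 7.43 on cocaine arrays 4 to 7 and 7.76, 7.44 and 7.41 on shock arrays 4 to 6. Cocaine array 6 was low and shock array 4 high, and the remaining arrays of both groups lay within the same narrow band. Its means were 7.35 ± 0.19 (SD, n = 4) and 7.54 ± 0.19 (SD, n = 3), a difference of -0.18 (SE 0.13, limma adjusted p = 0.938). The difference was -0.070 without shock array 4. Csf1r, the receptor for the growth factors Csf1 and Il34 on which microglia depend, read 6.08, 6.06, 5.84 and 6.25 in the cocaine group and 6.17, 6.24 and 6.05 in the shock group. The groups overlapped, again with cocaine array 6 lowest, and the difference of -0.098 shrank to -0.027 without that array.

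Tgfbr1, the type I receptor for TGF-beta, had the largest difference among the members. It was 4.99, 4.78, 4.63 and 4.99 on cocaine arrays 4 to 7 against 5.29, 5.26 and 4.99 on shock arrays 4 to 6. Shock arrays 4 and 5 were higher than every cocaine array, while shock array 6 had the same value as cocaine array 7. The difference was -0.33 (SE 0.12, unadjusted p = 0.0252 and adjusted p = 0.938 by limma), and it ranged from -0.43 to -0.26 when any 1 array was left out. It lay under the background level on every array.

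The purinergic receptor genes sense nucleotides released by active or damaged cells. P2ry12, which guides microglial processes towards ATP, was 6.13 on cocaine arrays 4, 5 and 6 and 6.03 on array 7, against 5.83, 6.13 and 6.27 on the shock arrays. The shock arrays spanned the cocaine values on both sides, and the difference was 0.031 (-0.092 without shock array 4). The differences were 0.021 for P2ry13, -0.049 for P2ry6, a receptor for uridine nucleotides linked to phagocytosis, and 0.0011 for the lysophospholipid receptor gene Gpr34. Gpr34 had the smallest range of all members over the 7 arrays, 0.043. Its mean of 4.46 lay under background, where a probe set can move little, so this does not show steady RNA.

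Among the remaining surface markers, Tmem119, a marker that separates microglia from other macrophages, was 5.51, 5.58, 5.58 and 5.41 in the cocaine group and 5.59, 5.49 and 5.77 in the shock group, with a difference of -0.095 (-0.020 without shock array 6). Siglech, a sialic acid-binding lectin, read 5.93, 5.81, 5.85 and 5.93 against 6.01, 5.93 and 5.96. Its cocaine values were at or below its shock values with a tie at the edge, and the difference was -0.084 (SE 0.045, unadjusted p = 0.103 and adjusted p = 0.938 by limma). The lectin gene Cd33 (0.074) and the Fc receptor-like gene Fcrls (0.051) had higher means in the cocaine group, each through a high value on cocaine array 4. Without that array they differed by -0.026 and -0.014. Selplg, a selectin ligand, had probe sets of opposite sign, 0.0047 for the brighter and -0.11 for the dimmer.

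C1q is assembled from A, B and C chains, whose genes lie side by side. C1qb was 6.15, 6.10, 6.51 and 6.07 on the cocaine arrays and 6.28, 6.44 and 6.31 on the shock arrays. Cocaine arrays 4, 5 and 7 were below all shock arrays, while cocaine array 6 was above them, so the difference of -0.13 became -0.24 without cocaine array 6. C1qa gave 5.63, 5.72, 5.87 and 5.71 against 5.55, 5.71 and 5.71, a difference of 0.075 in the opposite direction. C1qc was 4.93 on all 3 shock arrays and on cocaine arrays 5 and 7, 4.95 on cocaine array 6 and 4.77 on array 4. As measured, the 3 chains did not differ in 1 direction between the groups. On each chain cocaine array 6 had the highest value of the 7. C1qc lay under the background level (mean 4.91) with only 3 distinct values, and C1qa lay not far above it (mean 5.70). The comparison of the chains therefore rests in part on weak signals.

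Among activating receptors and their adaptors, Trem2, a lipid-sensing receptor, was 6.21 on cocaine arrays 5, 6 and 7 and shock arrays 4 and 6, with 6.18 on cocaine array 4 and 6.12 on shock array 5. Tyrobp (DAP12), the adaptor that carries its signal, read 5.39, 5.43, 5.48 and 5.25 in the cocaine group and 5.33, 5.37 and 5.41 in the shock group. The difference of Tyrobp, 0.012, was smaller than the SD of either group (0.10 cocaine, 0.040 shock). That of Trem2, 0.024, lay between its SDs of 0.013 (cocaine) and 0.053 (shock). Fcer1g, the gamma chain that signals for Fc receptors, was 6.08, 5.96, 6.18 and 6.18 against 6.18, 6.30 and 6.28. Shock arrays 5 and 6 lay above every cocaine array and shock array 4 among them, with a difference of -0.15 (SE 0.065, unadjusted p = 0.0534 and adjusted p = 0.938 by limma). The Fc receptor genes that use this chain did not follow it: Fcgr3 differed by 0.079 and Fcgr1 by -0.0042. Inpp5d, a phosphatase that dampens this signalling, differed by 0.044.

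Sensors of microbial products and danger signals were mostly under the background level (4 of 5). Tlr7, a sensor of single-stranded RNA, was 5.09, 4.62, 4.74 and 4.57 on the cocaine arrays and 4.49, 4.55 and 4.47 on the shock arrays. Every cocaine array was higher than every shock array, by as little as 0.021 between the nearest pair, and cocaine array 4 was highest. The difference was 0.25 (SE 0.12, unadjusted p = 0.0784 and adjusted p = 0.938 by limma), or 0.14 without cocaine array 4. Tlr2, a sensor of bacterial lipopeptides, read 5.54, 5.52, 5.62 and 5.62 against 5.62, 5.70 and 5.62, a difference of -0.070. The lipopolysaccharide co-receptor gene Cd14 (0.096), the lipopolysaccharide-pathway gene Ly86 (-0.058) and the co-stimulatory gene Cd86 (-0.034) completed the group, and the Cd14 difference was 0.22 without cocaine array 6.

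Cd68, a lysosomal glycoprotein of macrophages, was 8.06, 8.02, 7.90 and 7.99 on the cocaine arrays and 8.09, 7.89 and 8.04 on the shock arrays. The groups covered the same range, with a difference of -0.012 (95% interval -0.16 to 0.14). Ptprc (CD45), the tyrosine phosphatase of all leukocytes, read 5.89, 5.97, 6.25 and 5.97 against 5.97, 5.97 and 6.18. Cocaine array 6 and shock array 6 were its high arrays, and the groups differed by -0.020. Itgam (CD11b), an integrin subunit of myeloid cells, was 5.45, 5.45, 5.16 and 5.53 against 5.45, 5.50 and 5.38, a difference of -0.048 that was 0.031 without cocaine array 6. Laptm5, a lysosomal membrane protein of blood-derived cells, had the widest range of all members, from 6.02 on cocaine array 6 to 6.78 on shock array 4, and a difference of -0.16. The tetraspanin gene Cd53 (0.0091) and the lysosomal protease gene Ctss (-0.013) differed by less than 0.02.

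Of the transcription factors, Spi1 was 6.19, 6.05, 5.83 and 6.17 on the cocaine arrays and 6.16, 6.26 and 6.17 on the shock arrays. Cocaine arrays 5 and 6 were low and the others lay together, with a difference of -0.14 (-0.063 without cocaine array 6). Irf8 read 5.63, 5.49, 5.61 and 5.51 against 5.61, 5.42 and 5.65, and its means differed by -0.00092. A dimmer probe set of Irf8, under background with a mean of 4.56, differed by -0.13. Aif1 (Iba1), an actin-binding protein used to stain microglia, was 5.56 on cocaine arrays 4, 5 and 7 and shock array 4, 5.68 on cocaine array 6, and 5.44 and 5.63 on shock arrays 5 and 6. Hpgds, a prostaglandin D synthase, was 5.43, 5.43, 5.46 and 5.46 against 5.43, 5.40 and 4.98. Its difference of 0.17 rested on shock array 6 and was 0.029 without it. The fructose transporter gene Slc2a5 (-0.034) and the secreted protein gene Olfml3 (-0.054) were the last members.

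Spi1 encodes PU.1, a factor of the ETS family whose binding sites contain GGAA, so the promoter windows of the members were searched for the PU.1-type motif GAGGAAGT on both strands. Of the 38 members, 27 had a window in the RefSeq table used (GRCm38.p6, from 250 bases before to 50 after a transcript start). Those without one were C1qa, Cd14, Cd86, Csf1r, Gpr34, P2ry6, Selplg, Spi1, Tlr7, Tmem119 and Tyrobp. The motif was present in 5 of the 27 (18.5%), and in 3.69% of the 27025 genes of the table. The matches are shown with their neighbouring bases, 5′ to 3′ along the gene, to place these members beside the factor. Capitals mark the motif or, where it lies on the other strand, its reverse complement ACTTCCTC. They lie at chr1:87620274-87620317 (plus strand gene) for Inpp5d, chr3:95526766-95526809 (plus) for Ctss, chr3:106790118-106790161 (minus) for Cd53, chr4:136893084-136893127 (minus) for C1qc and chr6:65144754-65144797 (minus) for Hpgds.
Inpp5d: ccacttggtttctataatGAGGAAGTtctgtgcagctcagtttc
Ctss: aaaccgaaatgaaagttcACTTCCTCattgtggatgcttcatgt
Cd53: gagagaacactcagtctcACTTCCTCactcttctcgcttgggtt
C1qc: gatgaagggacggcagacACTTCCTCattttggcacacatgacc
Hpgds: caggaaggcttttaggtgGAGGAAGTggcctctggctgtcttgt

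With the transcript start counted as 0, the motif began at -20 in Inpp5d, -2 in Ctss, 6 in Cd53, -195 in C1qc and -49 in Hpgds. Across the arrays these 5 genes differed between the groups by 0.044, -0.013, 0.0091, -0.036 and 0.17 in that order, and none had an unadjusted p under 0.05 by limma. A match is a string of letters and not a measured binding site.

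Genes for ligands that microglia read, listed together with the receptor genes Sirpa and Cd22, were mostly well above background. Of the 9 genes in this list, 8 lay more than 1 log2 unit above it, all but Cd22. Cx3cl1, the fractalkine gene of neurons, was 11.33, 11.38, 11.33 and 11.33 on the cocaine arrays and 11.31, 11.36 and 11.28 on the shock arrays, a difference of 0.027 (limma adjusted p = 0.940). Il34, made mainly by neurons, was 9.02, 8.91, 9.22 and 8.95 against 8.92, 8.94 and 8.91. Cocaine array 6 was high, and the difference of 0.10 was 0.037 without it. Csf1 differed by -0.070 (0.023 without cocaine array 6), Tgfb1 by -0.0081 (0.0017 after quantile normalization, 0.012 after median centring, 0.089 without shock array 4) and Tgfb2 by -0.11 (-0.043 without cocaine array 6). At an adjusted p under 0.05, 0 of the 9 were called by limma, and 0 had an unadjusted p under 0.05.

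**Figure D3:**
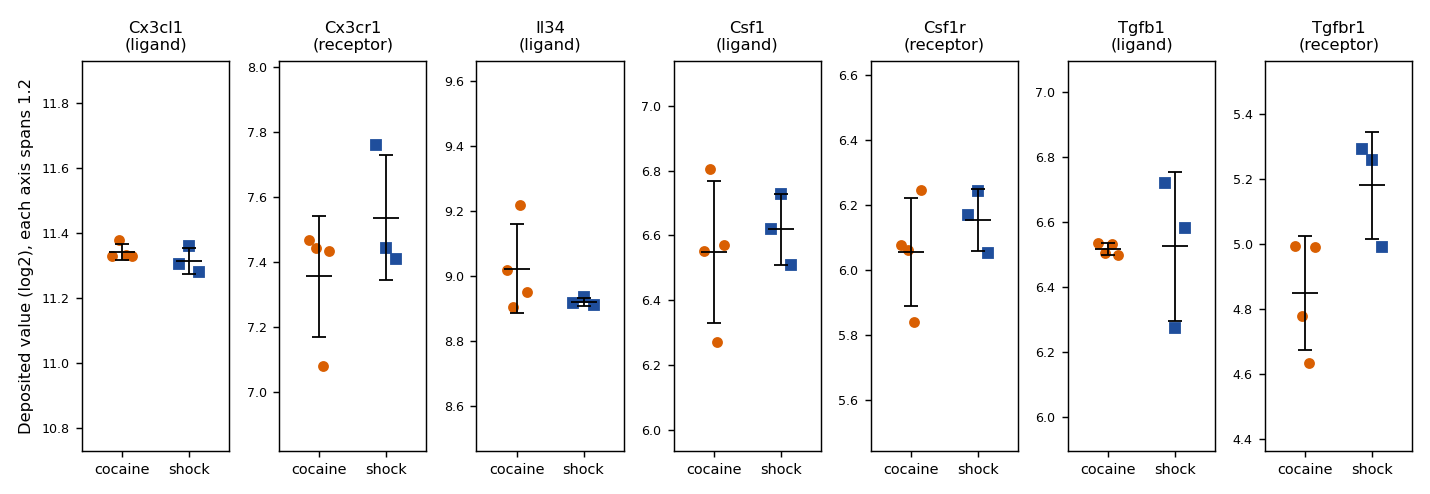
Deposited log2 values of ligand and receptor genes on the 4 cocaine arrays (orange circles) and 3 shock arrays (blue squares), with black bars for the mean ± SD; each panel has its own y axis, all spanning 1.2 log2 units. Cx3cl1 is nearly level on all 7 arrays, while Cx3cr1 has a low point on cocaine array 6 and a high point on shock array 4, and for Tgfbr1 shock arrays 4 and 5 lie above all cocaine arrays.

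Other genes of microglia and of the processes they carry out were taken from lists drawn up by role. None of the genes in these lists had an adjusted p under 0.05 by limma. Of 28 other microglia genes, 12 had a higher and 16 a lower mean in the cocaine group (median -0.012, 0.0014 after quantile normalization and 0.0076 after median centring), and 0 had an unadjusted p under 0.05. Of the 16 of these genes above background, 4 had a higher and 12 a lower mean (median -0.066). Over all 28, the smallest p-values belonged to the integrin gene Itgb5 (-0.18) and the macrophage adhesion receptor gene Adgre1 (0.15). Next came the immune checkpoint gene Havcr2 (0.13) and the matrix gene Sparc (-0.20). Adgre1 and Havcr2 lay under background.

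Phagocytosis and disease-associated microglia genes had a lower cocaine mean in 15 of 19 (median -0.053), or in 12 of 19 after median centring (median -0.033). Of the 19, 2 had an unadjusted p under 0.05 by limma, 1 in each direction, beside 3.1% of all genes. Axl, a receptor for the uptake of dying cells, was 8.07, 8.21, 8.19 and 8.03 on the cocaine arrays and 8.33, 8.36 and 8.37 on the shock arrays. Every cocaine array was below every shock array, and 2.37% of all genes showed no overlap in either direction. The Axl difference was -0.23 (SE 0.053, unadjusted p = 0.00388 and adjusted p = 0.938 by limma). It ranged from -0.26 to -0.20 when any 1 array was left out. Lyz2, the lysozyme gene of myeloid cells, had a higher cocaine mean by 0.43 (unadjusted p = 0.0210 and adjusted p = 0.938 by limma) at levels under background. B2m (-0.14), Pros1, a ligand of Axl and its relatives (-0.15), and the lipid carrier gene Apoe (-0.15) had lower cocaine means.

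Complement genes other than C1q had a lower cocaine mean in 9 of 12 (median -0.078, from -0.14 without shock array 5 to -0.026 without shock array 4), with C4b at -0.37 and, under background, C2 at -0.26, Cfb at -0.11 and C3ar1 at -0.065. Only 5 of the 12 were above background, and 4 of these had a lower mean (median -0.21). The C4b difference was -0.16 without cocaine array 6, on which it was 5.66 against 6.33 to 6.74 on the others. Interferon-response genes had a lower mean in 8 of 8 (median -0.089), or in 7 of 8 after quantile normalization or median centring. The mean was lower in 7 of 8 without cocaine array 6 (median -0.15) and in 6 of 8 without cocaine array 7 (median -0.082). The list was led by Ifitm3 (-0.36, and -0.22 without cocaine array 7), Usp18 (-0.14), Oasl2 (-0.13) and Ifit1 (-0.11). Neither list had a gene with an unadjusted p under 0.05.

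Cytokine and NF-kappaB genes had a lower mean in 12 of 19 (median -0.029, and -0.0057 without cocaine array 6 or 7), or in 10 of 19 after median centring and in 8 of the 10 above background. The chemokine gene Ccl12 (-0.14, unadjusted p = 0.0306 by limma, under background) was the 1 with an unadjusted p under 0.05, followed by Icam1 (-0.17), Il18 (-0.13) and Il6 (0.12, under background). Border macrophage markers had a lower mean in 6 of 10 (Ms4a7 -0.23, Cd163 0.13, Pf4 -0.10, Cd36 -0.039, Mrc1 0.057, all under background). Ms4a7 had an unadjusted p = 0.0368 by limma, and 3.1% of all genes had 1 under 0.05. Only 2 of the 10 lay above background, of which 2 had a higher and 0 a lower mean. Blood leukocyte markers had a lower mean in 7 of 15, or in 5 of 15 after median centring (Cd4 0.17, Ly6c2 -0.26 and, under background, Ms4a1 0.071 and Cd3d 0.069).

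Scores of vascular and astrocyte markers varied more between arrays than that of the microglia members did. Each list was given a score per array, obtained by subtracting from every gene its 7-array mean and averaging the remainders. For the 38 members it ran from -0.046 on cocaine array 6 to 0.0275 on shock array 5, and it was 0.026, -0.019 and 0.0025 on cocaine arrays 4, 5 and 7 and 0.0090 and 0.0007 on shock arrays 4 and 6. The vascular score ran from -0.41 on cocaine array 7 to 0.40 on shock array 6, with 12 of 12 markers lower in the cocaine group, and the astrocyte score from -0.18 on cocaine array 7 to 0.14 on shock array 5, with 10 of 10 lower. Neuron marker scores were 0.0055 to 0.032 on the cocaine arrays and -0.0275 to -0.016 on the shock arrays. The spreads of these scores are not on equal terms. That of the members averages 38 genes, 14 of them under background, against 12 vascular and 10 astrocyte markers. With the members grouped by role, the 3 C1q chains had the widest spread, from -0.11 on cocaine array 4 to 0.15 on cocaine array 6. On shock array 6, highest for vascular markers, the score of the microglia members was 0.0007, and on cocaine array 7, lowest for them, it was 0.0025. Apoe, C4b, Sparc, Axl and Ifitm3 are also made by astrocytes or vessel cells, whose markers had lower means in the cocaine group as well. Their scores overlapped between the groups: the astrocyte score was 0.10 on cocaine array 5 and -0.013 on shock array 4, and the vascular score was 0.017 and 0.020 on cocaine arrays 5 and 6 and 0.0055 on shock array 5. The part of those cells in these differences was not tested.

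**Figure D4:**
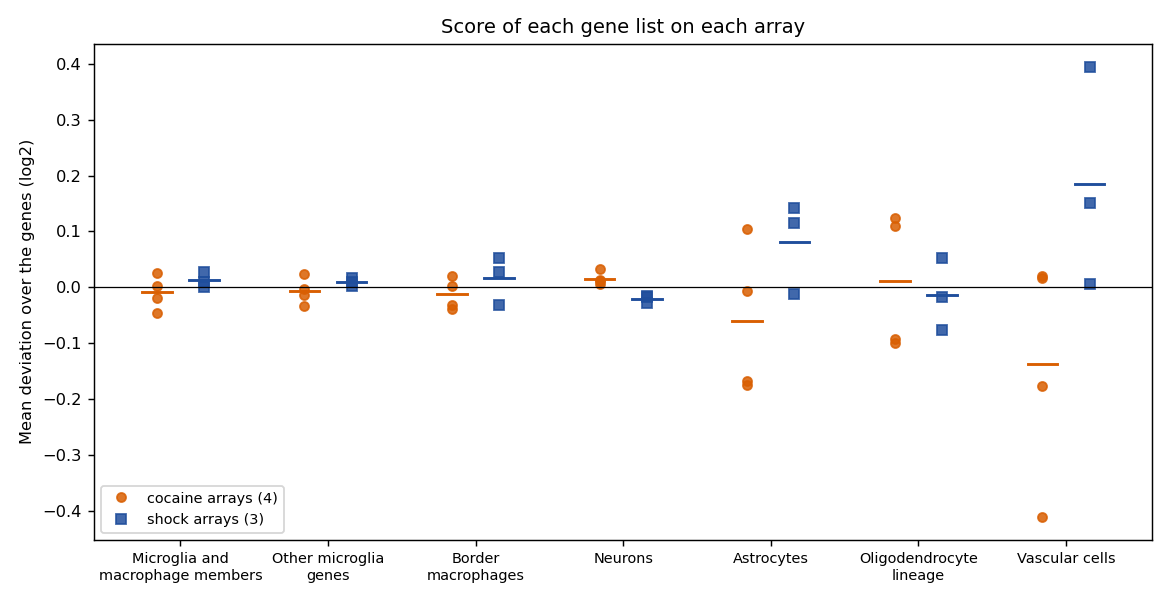
Score of each gene list (y axis, mean deviation over its genes on the log2 scale) on the 4 cocaine arrays (orange circles) and 3 shock arrays (blue squares), with a line at each group's mean. The microglia and macrophage members stay between -0.046 and 0.0275, while vascular markers spread from -0.41 to 0.40.

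Cocaine array 6 stood apart over all genes: 1012 genes lay more than 0.5 away from their average elsewhere, and each remaining array had 168 to 268 such genes. Among the members it held the highest or lowest value of the 7 arrays alone for 22 of 38 (57.9%), lowest for 12 and highest for 10, against 40.4% of all genes. Its low members included Cx3cr1, Csf1r, Spi1, Itgam (under background) and Laptm5, and its high members C1qa, C1qb, C1qc (under background), Ptprc and Aif1. Genes known from the same cells thus lay on opposite sides on this array. Without it the median difference of the members was -0.0083, with 19 higher and 19 lower. Identical values were frequent. Of the 38 members, 31 (81.6%) had the same value on 2 or more arrays, equal to the last deposited digit, against 66.9% of all genes, and Trem2, C1qc, Ly86, Fcrls, P2ry13 and Cd53 had only 3 distinct values each over the 7 arrays.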

How the data were processed

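Ribosome-bound RNA was measured on 7 one-colour arrays, 4 cocaine and 3 shock, grouped by the labels. The authors deposited normalized log2 values for 41345 probe sets; that they are log2 was judged by their range, 1.12 to 13.44. Transcriptome Analysis Console was used, per the submitters' processing notes. How probes were summarized and normalized is not given in the sources used. Arrays have no read depth, and their number limits the precision. Normalized values show changes relative to other genes only.

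Gene names came from the platform's annotation table (23521 with 1 symbol, 1814 with several, 16010 unnamed). The probe set of highest mean was kept per gene. Groups were compared with limma 3.58.1 in R 4.3.3 (lmFit, eBayes, no covariate) over 22180 genes, after the script was tested on simulated data. The members and lists were chosen with earlier results of these data known, so lists are described by counts and medians. All members could be named; values on every array were given for 15 fixed members and the 8 of smallest p (Cx3cr1 and Spi1 are in both), and up to 4 genes of smallest p per related list were named with Cx3cl1, Csf1, Il34, Tgfb1, Apoe and Mrc1. The alternatives left out single arrays or the genes under background, rescaled the arrays (by quantiles or by centring medians), averaged probe sets within genes, weighted arrays, changed or dropped the moderation, or used the title number as a block. The counts of intervals, of lists per setting and of background levels were added after seeing the data.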

Additional observations from a re-analysis of the deposited data

Results flagged for a closer look

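Among the 4 cocaine arrays, 1 array stood far from the others for 21 of 88 measures (38 members, 35 related genes and list scores), by a gap to the nearest array above 0.829 of the group's range. Chance alone gives about 1 in 20 for values without ties. Of the 11 members and 10 related genes concerned, 9 and 8 had the same value on 2 or more cocaine arrays.

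Without ties among the cocaine arrays, array 6 was lowest for Cx3cr1 (0.9105), Laptm5 (0.8470) and Tgfb2 (0.9352), and array 7 was lowest for Ifitm3 (0.8992). With ties, array 6 was lowest for Ly86 (0.9562) and C2 (1), and highest for Aif1, Cd53, Il6 and Mrc1 (1 each) and Cd163 (0.8916). Array 4 was lowest for C1qc (0.9046) and Trem2 (1), and highest for Fcrls (0.8517), Cd33 (0.8675), Usp18 (0.9318) and Ms4a1 (1). Array 7 was lowest for P2ry12 (0.9832) and Ly6c2 (1) and highest for Fcgr1 (0.8390), and array 5 was highest for Cx3cl1 (0.9600). The shock group has 3 arrays and was not examined this way.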

How the results depend on the processing

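With 7 arrays, many values near background and no input RNA, small changes in microglial RNA could not be seen. No member and no other gene reached an adjusted p under 0.05 in any of the 15 alternatives (limma), and in the values as deposited 1 member and 688 genes had an unadjusted p under 0.05. When any 1 array was left out, the members at an unadjusted p under 0.05 numbered 0 to 3, those without overlap 1 to 4, and the median difference ran from -0.034 to -0.0062. The count at an unadjusted p under 0.05 was 2 with array weights and 0 without moderation. The median was -0.00033 after quantile normalization, 0.00785 after median centring and -0.027 with probe sets averaged within genes. Groups failed to overlap for 3 members after median centring. Without the genes under background, 24 members were left, with 0 lacking overlap, 9 higher in the cocaine group, a median of -0.016 and 24 intervals within 1.5-fold.

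The same title numbers occur in both groups, but arrays of equal number deviated together only weakly (correlations 0.128, 0.0639 and 0.158), so the numbers were not taken as pairs. With the number as a replicate block, in which cocaine array 7 carries no weight, 3 members and 915 genes had an unadjusted p under 0.05. Among arrays 4 to 6 the 6 pairs of unequal number had correlations of -0.097 to -0.019. Every one of these arrays correlated best with its own number except shock array 5, whose highest was with cocaine array 7 (0.0899). This is a hint from the data and not from the design. Deviations were taken from each group's own mean, so within a group they cancel. A positive correlation for a pair forces negative ones elsewhere, and the contrast of equal with unequal numbers is in part built in.

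Several small differences changed sign, for which the cause was not tested. After quantile normalization they were 0.0010 for Ctss, 0.0018 for Ptprc, 0.00775 for Fcgr1, -0.0017 for Gpr34, 0.017 for Irf8 and 0.00165 for Tgfb1. After median centring they were 0.0074 for Ctss, 0.0083 for Cd68, 0.016 for Fcgr1, 0.019 for Irf8 and 0.012 for Tgfb1. With array weights they were -0.0026 for Tyrobp, 0.0053 for Cd68, -0.011 for Cd53 and 0.0028 for Fcgr1. With the replicate block they were -0.012 for P2ry13 and 0.015 for Irf8, and with the mean of probe sets -0.052 for Selplg.

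Leaving out 1 array turned the sign of 21 of 38 members. The ranges were -0.092 to 0.13 for P2ry12, -0.054 to 0.0057 for C1qc, -0.0091 to 0.087 for Aif1, -0.0066 to 0.039 for Trem2, -0.020 to 0.059 for Tyrobp and -0.027 to 0.0015 for Ctss. They were -0.014 to 0.082 for Fcrls, -0.092 to 0.031 for Itgam, -0.071 to 0.029 for Cd68, -0.024 to 0.033 for Cd53, -0.083 to 0.014 for Cd86 and -0.026 to 0.13 for Cd33. They were -0.096 to 0.049 for Ptprc, -0.081 to 0.0037 for Ly86, -0.053 to 0.052 for Fcgr1, -0.0085 to 0.0058 for Gpr34, -0.012 to 0.041 for P2ry13 and -0.10 to 0.11 for Selplg. The last were -0.072 to 0.044 for Irf8, -0.061 to 0.0085 for Slc2a5, and -0.0045 to 0.081 for Inpp5d. Among the related genes named, 2 turned sign, with ranges of -0.15 to 0.023 for Csf1 and -0.13 to 0.089 for Tgfb1. All members but Siglech, Fcer1g and Tgfbr1, 35 of 38, turned or moved by over 1.5 times without some array, as did 29 of the 35 related genes named.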
